A study of Mus musculus with 13 samples.

Results

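The nuclear genes for subunits of the respiratory chain and ATP synthase were followed through 5 groups of mouse NK cells. They were taken by name from the deposited table, as every gene whose symbol begins with Nduf followed by a, b, c, s or v and a digit, is Sdha, Sdhb, Sdhc or Sdhd, or begins with Uqcr, with Cox4 to Cox8 or with Atp5. The rule found 78 genes of 11989. By symbol, 35 belong to complex I, 4 to complex II, 7 to complex III, 13 to complex IV and 17 to complex V, the ATP synthase. Ndufa4, which carries a complex I name but is a subunit of complex IV, and Cox7a2l, a supercomplex factor, were kept apart. All 78 passed the filter on low values. The annotation placed them on 19 chromosomes as protein coding genes, 12 overlapped by another gene on the same strand and 29 by a gene on the other. Many respiratory genes have processed pseudogenes, and how reads of such copies or of overlapping genes were assigned is not given in the sources used here. Uqcrc1, Cox4i2 and Ndufa4l2 were not analysed here.

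RNA of splenic NK cells from wild-type C57BL/6 mice was sequenced in 13 samples. There were 3 libraries of naive cells without stimulation and 3 of naive cells given 6 hours of anti-NK1.1, an antibody to an activating receptor of NK cells; the labels state no time in culture for either. Before sequencing, other cells spent 72 hours in IL-15, a cytokine on which NK cells depend, under conditions named LD and HD, which are kept here as written because their meaning is not given. The LD condition has 2 libraries, both after 6 hours of anti-NK1.1, and the HD condition has 2 without stimulation and 3 after 6 hours of anti-NK1.1. Whether replicates are separate animals or separate cultures is not stated, so the p-values cover only the spread seen among these libraries, part of which may be technical.

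Complexes I and II feed electrons from NADH and succinate to ubiquinone, complex III passes them to cytochrome c, and complex IV hands them to oxygen. Complexes I, III and IV pump protons across the inner mitochondrial membrane, and the ATP synthase uses that gradient to make ATP. Subunits of complexes I, III, IV and V come from both the nuclear and the mitochondrial genome, and some complex IV subunits exist as tissue-specific isoforms encoded by separate genes. NK cells raise their respiration when cytokines such as IL-15 prime them.

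Levels are given as normalised CPM, counts scaled to a total of 1000000 in each library, which compare one gene between libraries and not one gene with another. The recovered read count of the median gene was 112 to 463 per library, and the 78 genes held 1.22% to 2.17% of the summed values. By the file header, library pool 1 held the 5 HD libraries together with LD replicate 1, and library pool 2 the 6 naive libraries together with LD replicate 3. All 14 NK cell markers were in the table, with summed levels of 17950 to 21720 CPM in naive unstimulated libraries and 15930 to 17230 in HD unstimulated libraries. After stimulation these sums were 8406 to 10000 in naive, 6658 to 8093 in LD and 8966 to 11570 in HD libraries. Single markers differed more than the sums. In HD against naive unstimulated cells 2 of the 14 were called higher and 6 lower (limma), against 16.6% and 17.3% of all genes. After stimulation 3 were higher and 5 lower, against 21.1% and 22.4%. The medians of the 14 were -0.76 and -0.57 (log2). Summed markers of macrophages, monocytes and dendritic cells, 11 of 11 in the table, ran from 666 to 788 in naive unstimulated, 618 to 742 in naive stimulated, 326 to 443 in LD, 169 to 243 in HD unstimulated and 97.2 to 128 in HD stimulated libraries. Summed T cell markers (4 of 8 in the table) were 29.2 to 71.1 in naive, 14.7 to 19.1 in LD and 24.4 to 44.7 CPM in HD libraries, and B cell markers (4 of 8) at most 14.7 in naive and 1.4 in cultured libraries. Neutrophil markers (4 of 7) were 3.57 to 26.1 over all libraries. Summed markers of erythroid cells and platelets (8 of 9) were 401 to 2151 in naive and 569 to 804 in cultured libraries. That sum does not follow most of its members. Of the 8, 7 were lower in HD than in naive cells without stimulation, and 7 with it (limma, adjusted p under 0.05). Of all genes tested, 17.3% and 22.4% were lower. The medians of the 8 were -6.17 and -6.23 (log2). In LD against naive stimulated cells 4 of the 8 were lower, at a median of -2.39, against 7% of all genes lower. The part of these other cells in the results was not tested. In bulk RNA, fewer cells of a type and less RNA per cell cannot be told apart.

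Among the 5 groups, HD unstimulated cells held the highest mean of 42 of the 78 genes, and naive stimulated cells the lowest mean of 51. Most differences were small. The range of the 5 group means had a median of 0.67 on the log2 scale and was under 1 for 61 genes. It was at least 2 for 4 genes only, Cox7a1, Cox6a2, Cox6b2 and Ndufv3. The 78 genes also shifted together between libraries of one group. LD replicate 3 was above LD replicate 1 for 67 of 78, with a median difference of 0.48 against 0.10 over all genes tested. HD unstimulated replicate 2 was above replicate 1 for 71 of 78, with a median difference of 0.41 against 0.03 over all genes. Genes for cytosolic ribosomal proteins (78) deviated from their group mean in the same direction in these 4 libraries, by a median of 0.19 in the LD and 0.12 in the HD pair. The part of such library shifts in the results was not tested.

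**Figure D1:**
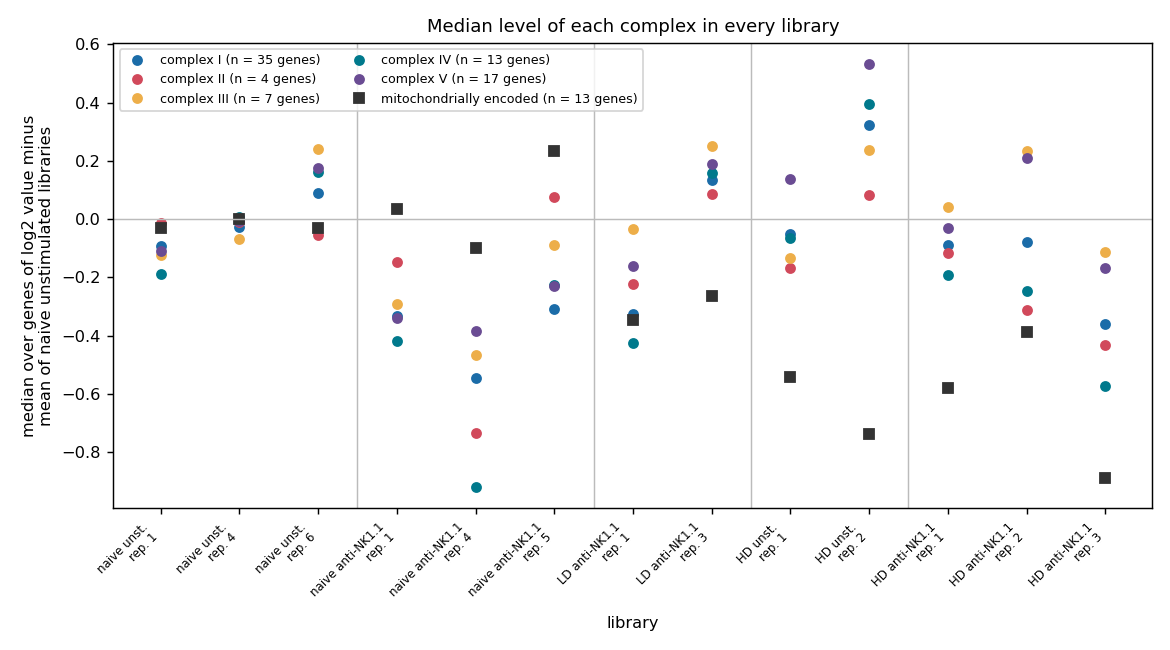
Median over the genes of each complex of the log2 value minus the mean of the naive unstimulated libraries (vertical axis) in each of the 13 libraries (horizontal axis), with the 13 mitochondrially encoded genes as squares. Points of the nuclear complexes lie below 0 in naive stimulated replicates 1 and 4, and stand above the squares in all 5 HD libraries.

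Stimulation of naive cells raised 2 of the 78 genes and lowered 15, at an adjusted p under 0.05 over 11543 genes (limma). Of all genes tested, 29.2% were called, 14.5% higher and 14.7% lower, against 21.8%, 2.56% and 19.2% of the 78. The estimate was below 0 for 69 of 78, with a median of -0.35 on the log2 scale against 0.01 over all genes. The count fell to 9 without naive unstimulated replicate 4, 10 without replicate 6, 11 without naive stimulated replicate 1 and 8 without replicate 4, and the median stayed between -0.45 and -0.27. Over all genes tested, 3376 were called with all libraries, and 2708, 2865, 2721 and 2718 in these fits, in that order.

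Stimulation of HD cells raised 3 of the 78 and lowered 9, that is 15.4% against 33.1% of all genes (15.9% higher and 17.2% lower). The estimate was below 0 for 57, with a median of -0.30 against -0.02 (log2). Without HD unstimulated replicate 2, 7 genes were called and the median was -0.16. Libraries of each stimulation comparison came from 1 pool.

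HD culture, compared without stimulation, raised 6 of the 78 and lowered 2, that is 10.3% against 33.9% of all genes (16.6% higher and 17.3% lower). The estimate was above 0 for 59, with a median of 0.16 against 0.02 (log2). The count was 5 without naive unstimulated replicate 4 or HD unstimulated replicate 1 and 4 without HD unstimulated replicate 2, and without the last the median was -0.02, so the direction of the median rests on that library. Without HD unstimulated replicate 1 the median was 0.35. HD and naive cells shared no pool. With pool as a factor, which only the LD libraries inform, 4 genes were called and the median was 0.58. That fit called 1006 of all genes tested, against 3909 without pool as a factor.

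After stimulation, HD cells were higher than naive cells for 12 of the 78 and lower for 3, that is 19.2% against 43.5% of all genes (21.1% higher and 22.4% lower), with a median of 0.27 against 0.02 (log2). With pool as a factor 4 genes were called, at a median of 0.70. That fit called 1107 of all genes tested, against 5023 without pool as a factor. LD cells were higher for 5 and lower for 0, that is 6.41% against 13.6% of all genes, 6.57% of which were higher and 7% lower. The LD estimate was above 0 for 73 of 78, with a median of 0.32 against 0.01 (log2), and for all 35 genes of complex I. That median was 0.09 without LD replicate 3, with 1 gene called, and 0.58 within pool 2, that is without LD replicate 1, with 3 called. The count was 2 without naive stimulated replicate 1, and 3 without naive stimulated replicate 4 or naive unstimulated replicate 4.

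HD and LD cells, both stimulated, differed in 4 of the 78 genes, that is 5.13% against 8.6% of all genes, with 1 higher and 3 lower in HD (3.27% and 5.33% of all genes). The median was -0.11 (log2), was -0.34 without LD replicate 1, and turned to 0.11 within pool 1, that is without LD replicate 3, where 1 gene was called. The count was also 1 without HD stimulated replicate 2 or 3, and 2 without HD stimulated replicate 1, LD replicate 1 or naive unstimulated replicate 4. These comparisons share control samples, so their counts are not independent of each other.

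**Figure D2:**
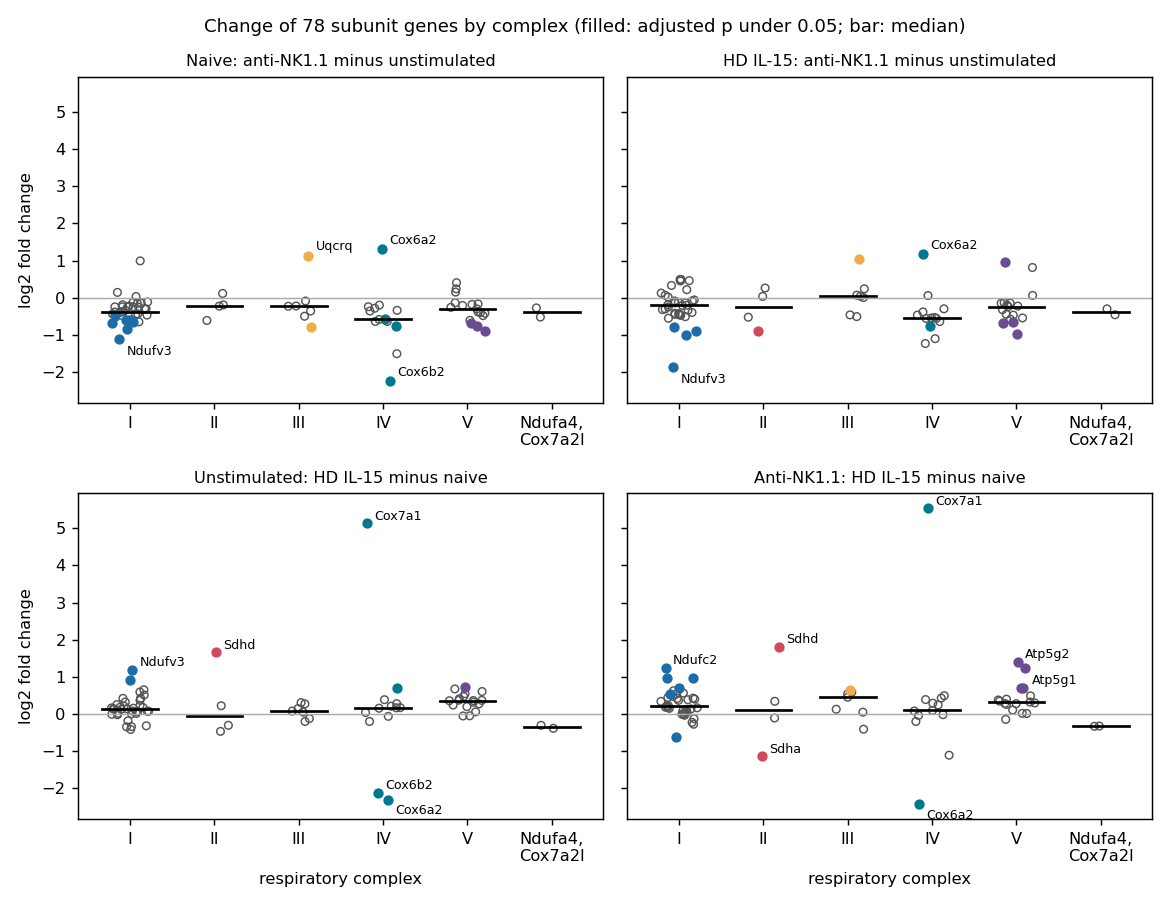
Log2 fold change (vertical axis) of each of the 78 genes by complex (horizontal axis) in 4 comparisons, with filled points for an adjusted p under 0.05 and bars for the median of a complex. The medians of complexes I, II, IV and V lie below 0 in both stimulation comparisons, and Cox7a1 stands alone above 5 in both comparisons of HD with naive cells.

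In complex I, which oxidises NADH, the largest called decrease on stimulation was that of Ndufv3, an accessory subunit of its NADH-binding module (ENSMUSG00000024038, chromosome 17, 31520115 to 31531331, plus strand, mm10). In naive cells Ndufv3 stood at 199, 196 and 230 CPM in the unstimulated libraries and at 113, 81.4 and 97.4 in the stimulated ones. HD cells held 429 and 521 without stimulation and 132, 133 and 123 after it. LD stimulated cells held 98.4 and 126. Unstimulated libraries of either origin were thus above every stimulated library, and the unstimulated HD pair was highest of all. Ndufv3 fell by 1.11 ± 0.18 (log2, SE; adjusted p = 4.66e-04, limma) in naive cells and by 1.87 ± 0.20 (adjusted p = 1.22e-05) in HD cells. In unstimulated cells it was 1.19 ± 0.20 higher after HD culture (adjusted p = 4.80e-04). Its 2 stimulation responses differed by -0.76 ± 0.27 (95% interval -1.34 to -0.17), which missed the threshold at an adjusted p of 0.0779.

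Of the 35 complex I genes, stimulation lowered 8 in naive cells, or 22.9% against 14.7% of all genes, and 4 in HD cells, or 11.4% against 17.2%, and none was called higher. The naive count was 2 without naive unstimulated replicate 4 or naive stimulated replicate 4, and the HD count 2 without HD unstimulated replicate 2. Ndufb10, an accessory subunit of the membrane arm, fell from 115, 123 and 129 to 74.4, 60.8 and 69.5 CPM in naive libraries, and from 121 and 151 to 72.9, 64.5 and 63.2 in HD libraries. The groups did not overlap, and the decreases of 0.85 ± 0.18 and 1.02 ± 0.20 (log2) both passed the test (adjusted p = 0.00327 and 0.00157, limma). Ndufb8, another membrane-arm subunit, fell by 0.67 ± 0.22 in naive cells (adjusted p = 0.0301), a call lost without any of 4 libraries, naive unstimulated replicates 4 and 6 and naive stimulated replicates 4 and 5, at adjusted p up to 0.116. Ndufa3 fell by 0.90 ± 0.24 in HD cells (adjusted p = 0.00946; 0.123 without HD unstimulated replicate 2). The core subunits Ndufs1, which carries iron-sulfur clusters, and Ndufv1, which binds NADH, passed in none of the comparisons. Ndufv1 ranged from 80.5 to 137 CPM over all 13 libraries.

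HD culture raised 2 complex I genes without stimulation, or 5.71% against 16.6% of all genes, and lowered 0 against 17.3%. After stimulation 5 were higher and 1 lower than in naive cells, or 14.3% and 2.86% against 21.1% and 22.4%. Both comparisons thus called a smaller share of complex I than of all genes. Ndufc1, a small membrane-arm subunit, was called in both, at 0.90 ± 0.26 (log2; adjusted p = 0.0151; 0.0578 without naive unstimulated replicate 4 and 0.103 without HD unstimulated replicate 2) and 0.97 ± 0.23 (adjusted p = 0.00389). Both calls of Ndufc1 were lost with pool as a factor, at adjusted p of 0.42 and 0.325. Ndufa12, an accessory subunit of the peripheral arm, lay at 120, 101 and 119 CPM in naive stimulated, 175 and 246 in LD and 248, 236 and 182 in HD stimulated libraries. All LD and HD values were above the naive ones, with increases of 0.88 ± 0.21 in LD (adjusted p = 0.0158; 0.157 without LD replicate 3) and 0.96 ± 0.19 in HD cells (adjusted p = 0.00117). The call of Ndufc2 after stimulation, 1.25 ± 0.46 (adjusted p = 0.0386), rested on 1 library. HD stimulated replicate 2 held 447 CPM of Ndufc2 against 120 and 109 in the others, and without it the difference was 0.59 (adjusted p = 0.196). It was also lost without naive stimulated replicate 4 (0.127) or 5 (0.0685) and with pool as a factor (0.794), and Gm16053 overlaps Ndufc2 on the same strand. Ndufa6, a subunit of the peripheral arm, was the 1 gene lower, by -0.62 ± 0.19 (adjusted p = 0.0163). With pool as a factor that difference of Ndufa6 was 0.00 (adjusted p = 0.996), and without naive stimulated replicate 5 or HD stimulated replicate 2 its adjusted p was 0.0575 or 0.0642.

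Complex II is the only one of the 5 that is wholly nuclear encoded. In HD against naive stimulated cells a catalytic subunit, Sdha, was called lower and an anchor subunit, Sdhd, higher. Both of these calls were lost with pool as a factor. Sdha, the flavoprotein that oxidises succinate (ENSMUSG00000021577, chromosome 13, 74322254 to 74350280, minus strand), stood at 133, 150 and 124 CPM in naive unstimulated and 119, 102 and 128 in naive stimulated libraries. It lay at 88.8 and 100 in LD, 81 and 118 in HD unstimulated and 59, 51.8 and 47 in HD stimulated libraries. The 3 HD stimulated libraries were below all others. Sdha fell by 0.90 ± 0.21 (log2; adjusted p = 0.005, limma) on stimulation of HD cells, and by an uncalled -0.23 in naive cells, but the difference of the responses, -0.68 ± 0.29 (95% interval -1.29 to -0.06), did not pass (adjusted p = 0.132). Without HD unstimulated replicate 2 the decrease in HD cells was 0.63 (adjusted p = 0.0881). Among stimulated cells, HD was lower, with a difference from naive cells of -1.14 ± 0.19 (adjusted p = 3.03e-04; 0.129 with pool as a factor) and from LD cells of -0.85 ± 0.21 (adjusted p = 0.0242). The difference of Sdha from LD was lost without LD replicate 1 (0.0674), LD replicate 3 (0.171), HD stimulated replicate 2 (0.0657) or 3 (0.0751). Gm16125 overlaps Sdha on the other strand, and whether counting used the strand is not given in the sources used here.

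Sdhd, a membrane anchor of complex II, was counted at a few CPM. It lay at 1.89, 1.42 and 1.35 CPM in naive unstimulated and 2.78, 0.87 and 1.88 in naive stimulated libraries, 6.68 and 2.02 in LD, 4.73 and 5.35 in HD unstimulated and 5.53, 8.16 and 4.87 in HD stimulated libraries. All HD libraries were above all naive ones, while the LD pair spread over both. The HD increases were 1.66 ± 0.53 without stimulation (log2; adjusted p = 0.0252) and 1.81 ± 0.47 with it (adjusted p = 0.00683). The call without stimulation was lost without any of 4 libraries, naive unstimulated replicate 4 or 6 or HD unstimulated replicate 1 or 2, at adjusted p of 0.0576 to 0.116. With pool as a factor the 2 differences of Sdhd were -0.03 and 0.12 (adjusted p = 0.988 and 0.95). Sdhb, the iron-sulfur subunit, and Sdhc, the other anchor, passed in no comparison.

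In complex III the small subunit Uqcrq (ENSMUSG00000044894, chromosome 11, 53427922 to 53430831, minus strand) rose on stimulation while most other genes of the module had estimates below 0 in naive cells. Uqcrq stood at 177, 171 and 229 CPM in naive unstimulated libraries and 457, 373 and 424 after stimulation. HD libraries held 182 and 245 without and 477, 470 and 356 with stimulation, and LD libraries 444 and 705. All 8 stimulated libraries were above all 5 unstimulated ones. The increase was 1.13 ± 0.22 in naive cells (log2; adjusted p = 0.00176, limma) and 1.03 ± 0.25 in HD cells (adjusted p = 0.00545; 0.072 without HD unstimulated replicate 1). The responses of Uqcrq differed by -0.10 (95% interval -0.81 to 0.61). Uqcr11 fell by 0.78 ± 0.24 in naive cells (adjusted p = 0.0258), a call lost without naive unstimulated replicate 6 or naive stimulated replicate 4 or 5, at adjusted p up to 0.092.

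Uqcrb, a ubiquinone-binding subunit of complex III, was 0.96 ± 0.25 higher in LD (log2; adjusted p = 0.0198) and 0.65 ± 0.22 higher in HD cells (adjusted p = 0.0284) than in naive cells, all stimulated. It lay at 123, 120 and 128 CPM in naive, 246 and 235 in LD and 144, 175 and 287 in HD libraries, so no cultured library reached down to the naive ones. Without HD stimulated replicate 3 the HD difference of Uqcrb was 0.36 (adjusted p = 0.136), and it was also lost without any 1 of the naive stimulated libraries (adjusted p = 0.0552 to 0.0673). The LD call was lost without naive stimulated replicate 1 (0.0503) or either LD replicate (0.106 and 0.0798). Both calls of Uqcrb were lost with pool as a factor, at 0.441 in HD and 0.107 in LD cells. Uqcrfs1, the Rieske iron-sulfur protein, passed in no comparison.

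Complex IV, the cytochrome c oxidase, held the 3 genes with the widest ranges, and all 3 are isoforms known from other tissues. Cox6a2 (ENSMUSG00000030785, chromosome 7, 128205435 to 128206387, minus strand), the heart and skeletal muscle isoform of subunit 6a, stood at 20, 18.6 and 24.4 CPM in naive unstimulated libraries and 52.1, 53.5 and 48.8 after stimulation. LD libraries held 31.1 and 37.8, HD unstimulated libraries 3.78 and 4.58, and HD stimulated libraries 9.14, 10.2 and 9.07. No 2 of the 5 groups overlapped, and the order from high to low was naive stimulated, LD stimulated, naive unstimulated, HD stimulated and HD unstimulated. Stimulation raised Cox6a2 by 1.30 ± 0.20 in naive (log2; adjusted p = 2.87e-04, limma) and 1.17 ± 0.22 in HD cells (adjusted p = 0.00116). HD culture lowered it, with differences from naive cells of -2.30 ± 0.22 without stimulation (adjusted p = 3.04e-06) and -2.44 ± 0.20 with it (adjusted p = 5.26e-07). HD also differed from LD by -1.85 ± 0.22 (adjusted p = 1.40e-04). These 5 calls of Cox6a2 held under every alternative tried. The stimulation responses differed by -0.13 (95% interval -0.78 to 0.51).

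The ubiquitous isoform Cox6a1 passed in none of the comparisons, with estimates of -0.59 and -0.56 on stimulation of naive and HD cells. As a share of the normalised CPM of both genes, Cox6a2 was 4.06% to 5.02% in naive unstimulated and 11.6% to 21% in naive stimulated libraries. It was 8.69% to 10.9% in LD, 0.93% to 1.05% in HD unstimulated and 2.86% to 3.68% in HD stimulated libraries. Such a share compares libraries and does not measure the proportion of the isoforms. Itgad overlaps Cox6a2 on the other strand. Its mean ranked, from high to low, naive unstimulated, naive stimulated, LD, HD unstimulated and HD stimulated, at 10.97, 5.87, 4.69, 3.04 and 1.55 CPM of Itgad. The part of Itgad in the values of Cox6a2 was not tested.

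Cox7a1 (ENSMUSG00000074218, chromosome 7, 30184144 to 30186078, plus strand), the heart and skeletal muscle isoform of subunit 7a, was near the detection limit in naive cells and detected throughout HD cells. Recovered reads of Cox7a1 were 6, 4 and 2 in naive unstimulated and 1, 0 and 4 in naive stimulated libraries, 53 and 21 in LD, 96 and 208 in HD unstimulated and 45, 109 and 98 in HD stimulated libraries. In CPM this is at most 0.45 in any naive library, 1.79 and 1.17 in LD, 11.3 and 17.8 in HD unstimulated and 4.71, 8.68 and 6.85 in HD stimulated libraries. Naive, LD and HD libraries were separate. The estimates against naive cells were 5.13 ± 0.61 for HD without stimulation (log2; adjusted p = 2.14e-05), 5.54 ± 0.55 for HD with it (adjusted p = 2.98e-06) and 3.42 ± 0.61 for LD (adjusted p = 0.00247). With 12 and 5 reads over the 2 naive groups, their size depends on the count of 1 added before the logarithm. Cox7a1 passed the filter on low values through its LD and HD libraries only, as every naive value lay below the minimum. Its place among the genes tested thus rests on the groups called higher. All 3 calls held under every alternative tried, among them the fit without a filter. HD above LD, at 2.12 ± 0.61 (adjusted p = 0.0463), was lost under 8 of the 13 fits without 1 library, with adjusted p up to 0.273 without LD replicate 3. On stimulation the estimates of Cox7a1 were -1.51 in naive and -1.10 in HD cells, and neither passed. The ubiquitous isoform Cox7a2 passed in no comparison, and lay between 240 and 521 CPM.

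Cox6b2, an isoform of subunit 6b known from testis, stood at 8.73, 13.7 and 9.96 CPM in naive unstimulated libraries and at 2.63 or less in the other 10. It fell by 2.24 ± 0.49 on stimulation of naive cells (log2; adjusted p = 0.00372, limma), a call that held under every alternative tried. Without stimulation, HD cells were 2.12 ± 0.55 lower than naive cells (adjusted p = 0.00871). That difference of Cox6b2 was lost without either HD unstimulated replicate (adjusted p = 0.0532 and 0.0507) and was -1.05 with pool as a factor (adjusted p = 0.563). Cox6b1 passed in no comparison.

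Of the other complex IV subunits, Cox5b fell on stimulation of naive cells from 140, 161 and 169 to 93.1, 82.5 and 100 CPM, by 0.77 ± 0.19 (log2; adjusted p = 0.00703). Cox7b fell by 0.57 ± 0.19 in naive cells (adjusted p = 0.0394) and by 0.78 ± 0.22 in HD cells (adjusted p = 0.0126), and was 0.70 ± 0.22 higher in HD than in naive unstimulated cells (adjusted p = 0.0213). The naive call of Cox7b was lost in 7 of the 13 fits without 1 library (adjusted p up to 0.159). The HD response of Cox7b was lost without HD unstimulated replicate 1 (0.079), and its HD increase without naive unstimulated replicate 4 (0.0619) or either HD unstimulated replicate (0.121 and 0.0609), and with pool as a factor (0.118). Cox7c was 0.88 ± 0.27 higher in LD than in naive stimulated cells (adjusted p = 0.0453), a call lost in 9 of 13 such fits (adjusted p up to 0.29). Cox4i1, Cox5a and Cox8a passed in no comparison. The median of complex IV on stimulation was -0.57 in naive and -0.55 in HD cells, on the log2 scale.

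**Figure D3:**
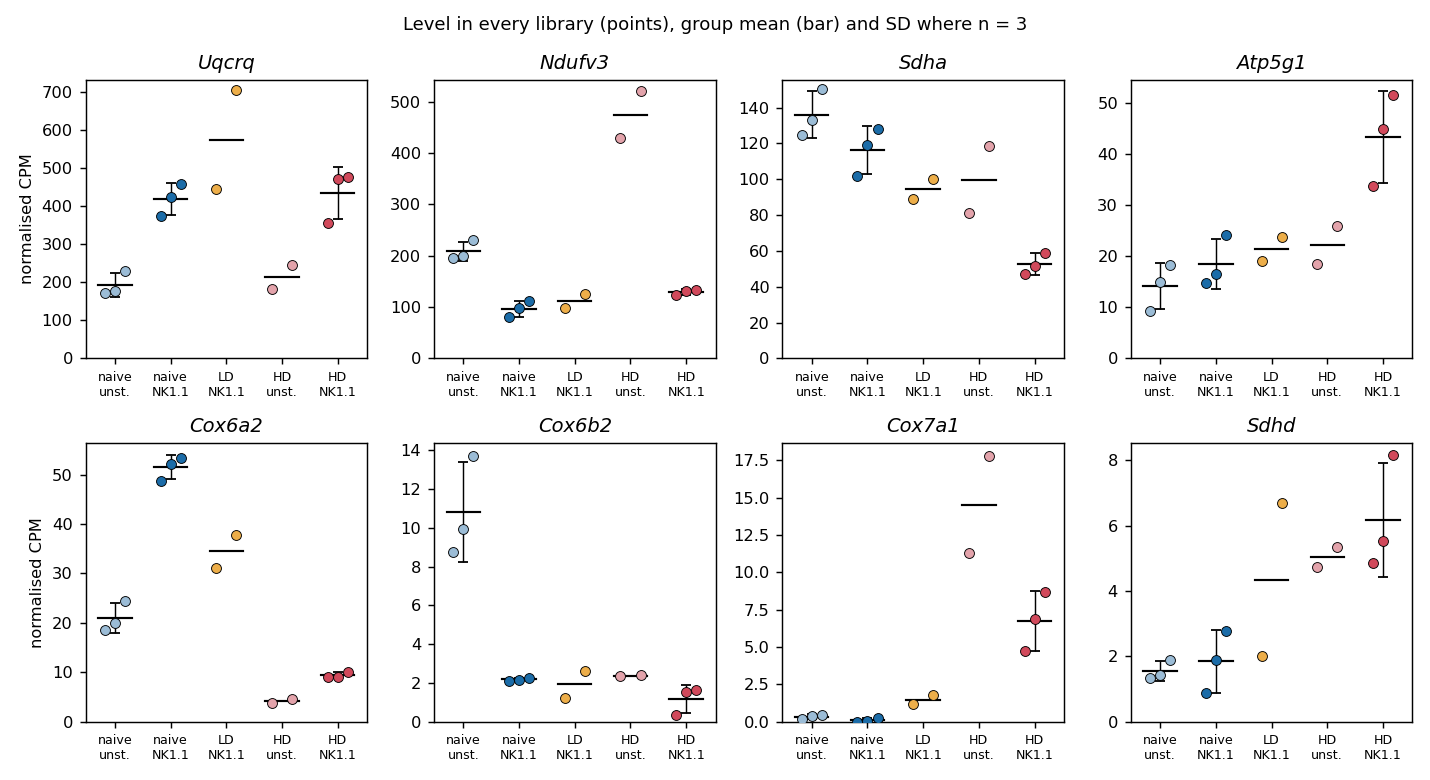
Normalised CPM (vertical axis, linear from 0) of 8 genes in every library (points) of the 5 groups (horizontal axis), with the group mean as a bar and the SD where n = 3. Uqcrq and Ndufv3 separate stimulated from unstimulated libraries in opposite directions. Cox6a2 is highest in naive stimulated and Cox6b2 in naive unstimulated libraries. Cox7a1 is highest in HD libraries, and the group mean of Sdhd is highest in HD stimulated cells.

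In complex V, stimulation lowered Atp5h and Atp5c1 of the stalks in both naive and HD cells. Atp5h, subunit d of the peripheral stalk, fell from 212, 200 and 199 to 116, 117 and 96.6 CPM in naive libraries, by 0.90 ± 0.18 (log2; adjusted p = 0.00224, limma). In HD libraries it went from 194 and 231 to 159, 139 and 107, by 0.67 ± 0.20 (adjusted p = 0.0207). The HD decrease of Atp5h was lost without HD unstimulated replicate 2 (0.154) or HD stimulated replicate 3 (0.0755). Atp5c1, the gamma subunit of the rotor, fell from 223, 201 and 194 to 110, 121 and 129 CPM in naive libraries (-0.77 ± 0.21, adjusted p = 0.014; 0.0527 without naive stimulated replicate 1) and from 319 and 253 to 130, 148 and 160 in HD libraries (-0.96 ± 0.24, adjusted p = 0.0064; 0.0709 without HD unstimulated replicate 1). None of these groups overlapped. Atp5d, the delta subunit, fell by 0.66 ± 0.23 in HD cells (adjusted p = 0.0406), with a difference of -0.34 without HD unstimulated replicate 2 and the call lost in 5 of 13 fits without 1 library. Atp5j2 fell by 0.68 ± 0.22 in naive cells (adjusted p = 0.03; up to 0.108 in the 4 of 13 fits that lost it). The catalytic core genes Atp5a1 and Atp5b passed in no comparison, with Atp5b at 585 to 1143 CPM.

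The c ring, through which protons pass, is encoded by Atp5g1, Atp5g2 and Atp5g3, which give the same mature protein. Atp5g1 (chromosome 11, 96068852 to 96075670, minus strand) stood at 9.29, 14.9 and 18.3 CPM in naive unstimulated and 16.6, 14.8 and 24.1 in naive stimulated libraries, 19.1 and 23.8 in LD, 18.4 and 25.9 in HD unstimulated and 44.9, 51.5 and 33.7 in HD stimulated libraries. The 3 HD stimulated libraries were above all others. Atp5g1 rose by 0.97 ± 0.32 on stimulation of HD cells (log2; adjusted p = 0.0317) and was 1.24 ± 0.29 higher in HD than in naive stimulated cells (adjusted p = 0.00328; 0.113 with pool as a factor). The HD response of Atp5g1 was lost without HD unstimulated replicate 1 (0.219) or HD stimulated replicate 1 (0.0761) or 2 (0.102). In naive cells it was an uncalled 0.40, and the difference of the responses was 0.56 (95% interval -0.36 to 1.49; adjusted p = 0.418). Atp5g2 was 1.41 ± 0.42 higher in HD than in naive stimulated cells (adjusted p = 0.0151; 0.0584 and 0.0524 without HD stimulated replicates 1 and 3 and 0.0755 with pool as a factor), at no more than 6.65 CPM. No c-ring gene was called between HD and naive cells without stimulation, and Atp5g3 passed in no comparison. Of the normalised CPM of Atp5g1 and Atp5g3 together, Atp5g1 held 2.7% to 4.22% in naive unstimulated libraries and 9.32% to 10.1% in HD stimulated ones. This share compares libraries and does not measure the proportion of the 2 genes.

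Atp5k, subunit e of the membrane part, was 0.72 ± 0.19 higher in HD than in naive cells without stimulation (log2; adjusted p = 0.011; 0.0949 without HD unstimulated replicate 2 and 0.133 with pool as a factor) and 0.69 ± 0.17 higher with it (adjusted p = 0.00545). Atp5k lay at 411, 434 and 486 CPM in naive unstimulated against 665 and 796 in HD unstimulated libraries. After stimulation it lay at 350, 340 and 305 against 587, 541 and 479. The groups did not overlap in either pair. The median of complex V was 0.36 and 0.32 in these 2 comparisons, and the first was 0.14 without HD unstimulated replicate 2 and 0.53 without replicate 1.

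The stimulation responses of naive and HD cells, which share no library, had 9 called genes in common, all in the same direction. These were Uqcrq and Cox6a2, which rose, and Ndufv3, Ndufb10, Ndufb11, Ndufa3, Cox7b, Atp5c1 and Atp5h, which fell. They are 52.9% of the 17 called in naive cells and 75% of the 12 called in HD cells. Over all genes tested, 1690 were called in both, which is 50.1% of the naive and 44.2% of the HD calls, and 86.9% of them had the same direction. A direct test of the difference between the responses called 0 of the 78 genes (limma), against 15.2% of all genes (7.22% higher and 8.01% lower), with 2 genes, Ndufv3 and Sdha, at an unadjusted p under 0.05. Without naive stimulated replicate 4 that test called 1 gene, Ndufv3, at -0.88 (log2; adjusted p = 0.047). The 95% interval of this difference, not adjusted for the number of genes, had a median full width of 1.42 on the log2 scale. Small differences could therefore be missed here.

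**Figure D4:**
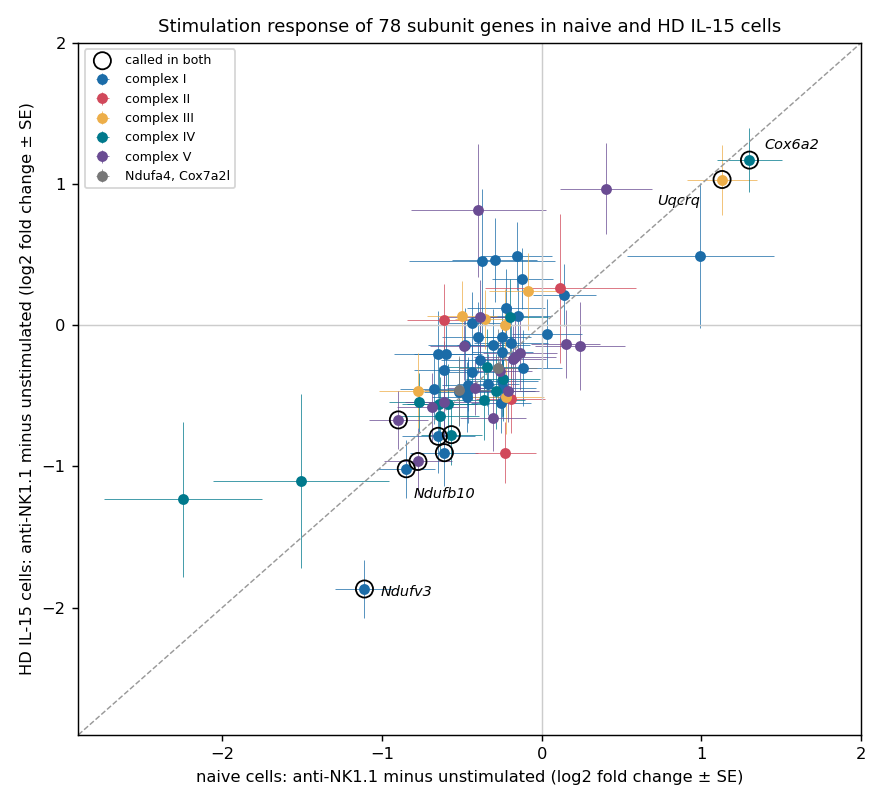
Log2 fold change on stimulation of the 78 genes in naive cells (horizontal axis) and HD cells (vertical axis), each with its SE, coloured by complex, with a circle round the 9 genes called in both and a dashed line of equal change. Uqcrq and Cox6a2 lie near 1 on both axes, and Ndufv3 lies below the line at -1.11 and -1.87.

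Of the 13 mitochondrially encoded subunit genes, 5 were lower in HD than in naive cells without stimulation and 5 with it, that is 38.5% against 17.3% and 22.4% of all genes. None was called higher, and the medians were -0.62 and -0.39 (log2). The first count was 2 without either HD unstimulated replicate. None was called in either comparison with pool as a factor, at medians of -0.58 and -0.91. Among the genes called were mt-Cytb of complex III (-1.24 ± 0.23, adjusted p = 9.12e-04, and -1.34 ± 0.21, adjusted p = 1.60e-04), mt-Co2 of complex IV (-1.09 ± 0.26, adjusted p = 0.00507, and -1.66 ± 0.23, adjusted p = 7.10e-05) and mt-Nd4 of complex I (-1.33 ± 0.36, adjusted p = 0.0103, and -1.32 ± 0.32, adjusted p = 0.00418). The first call of mt-Nd4 was lost without either HD unstimulated replicate (0.0676 and 0.0546). On stimulation 1 of the 13, mt-Atp8, fell in naive cells, by 0.61 ± 0.21 (adjusted p = 0.0384), a call lost without any 1 of the 6 naive libraries (adjusted p up to 0.136). Their share of the summed values was 4.41% to 6.17% in the naive libraries and 2.55% to 3.69% in the HD ones.

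Of 4 partners of the chain that carry other names, stimulation raised 0 and lowered 1 in naive cells, against 14.5% and 14.7% of all genes. In HD cells it raised 1 and lowered 1, against 15.9% and 17.2%. HD against naive cells had 2 higher without and 3 with stimulation, against 16.6% and 21.1% of all genes, and 0 lower, against 17.3% and 22.4%. With pool as a factor 0 and 2 were called higher. Cycs, the electron carrier cytochrome c, rose by 1.47 ± 0.27 (log2; adjusted p = 7.33e-04) on stimulation of HD cells, from a mean of 16.0 to 44.7 CPM, and stood at 12.4 and 12.5 in the 2 naive groups. Atpif1, the inhibitor of the ATP synthase, fell by 1.42 ± 0.20 in naive (adjusted p = 1.58e-04) and by 1.37 ± 0.23 in HD cells (adjusted p = 4.05e-04). It was 0.695 higher in HD than in naive cells without stimulation (limma, adjusted p = 0.03) and 0.75 higher with it (adjusted p = 0.00875). Both calls of Atpif1 were lost with pool as a factor (0.368 and 0.281). The first was also lost without naive unstimulated replicate 1 (0.0893) or 4 (0.105) or HD unstimulated replicate 2. Of 49 assembly factors, which build the complexes, 3 rose and 5 fell on stimulation of naive cells, that is 6.12% and 10.2% against 14.5% and 14.7% of all genes. In HD cells 8 rose and 6 fell, that is 16.3% and 12.2% against 15.9% and 17.2%. In HD against naive cells 13 were higher and 1 lower without stimulation, with 26.5% against 16.6% of all genes higher and 2.04% against 17.3% lower. After it 22 were higher and 3 lower, with 44.9% against 21.1% higher and 6.12% against 22.4% lower. The medians were 0.25 and 0.59. The number higher was 5 to 13 and 14 to 22 over the fits without 1 library, lowest without HD unstimulated replicate 2 and naive stimulated replicate 5, and 1 and 2 with pool as a factor. The largest increases after stimulation were those of Sco2, a copper chaperone of complex IV (2.18 ± 0.27, adjusted p = 2.21e-05), Ndufaf5 (1.79 ± 0.32, adjusted p = 4.77e-04) and Lyrm7 (1.60 ± 0.62, adjusted p = 0.0488). With pool as a factor Sco2 was still called (0.00727) and Ndufaf5 was not (0.398), and the call of Lyrm7 was lost in 11 of 13 fits without 1 library (up to 0.214).

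Upstream of the chain, 6 of 17 pyruvate dehydrogenase and citrate cycle genes were higher in HD than in naive stimulated cells, that is 35.3% against 21.1% of all genes. The count was 3 without naive stimulated replicate 4 or HD stimulated replicate 1 or 2, and 2 with pool as a factor. Without stimulation 0 of the 17 were called (limma), with 2 at an unadjusted p under 0.05. The genes higher after stimulation were led by Pdhx (1.57 ± 0.34, log2; adjusted p = 0.00203), Dlat (0.94 ± 0.26, adjusted p = 0.0102) and Fh1 (0.88 ± 0.26, adjusted p = 0.0132; 0.0591 without naive stimulated replicate 4), of which Pdhx was lost with pool as a factor (0.0796). Of 8 genes of other electron inputs, Etfb, which takes electrons from fatty acid oxidation, fell by 2.02 ± 0.24 on stimulation of naive cells (adjusted p = 3.25e-05) and was 2.62 ± 0.24 higher in HD than in naive stimulated cells (adjusted p = 1.52e-06). Of 8 genes of ATP and phosphate exchange, 3 were higher in HD unstimulated than in naive unstimulated cells (37.5% against 16.6% of all genes). With pool as a factor 1 was called higher. Among the 3 were the porin gene Vdac1 (2.18 ± 0.34, adjusted p = 2.41e-04) and the ADP/ATP carrier Slc25a4 (1.30 ± 0.32, adjusted p = 0.00662). The call of Slc25a4 was lost without HD unstimulated replicate 1 and with pool as a factor (0.298).

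Of 21 regulators of respiratory genes, stimulation raised 2 and lowered 1 in naive cells, that is 9.52% and 4.76% against 14.5% and 14.7% of all genes. In HD cells it raised 6 and lowered 1, that is 28.6% and 4.76% against 15.9% and 17.2%. Tfb2m, a mitochondrial transcription factor, rose in both (1.05 ± 0.30, log2; adjusted p = 0.0186, and 1.56 ± 0.34, adjusted p = 0.00277), as did Gabpb1, a subunit of the ETS factor GABP (0.63 ± 0.22, adjusted p = 0.041, and 1.22 ± 0.24, adjusted p = 0.00146). In HD cells Myc (2.02 ± 0.25, adjusted p = 3.46e-05), Tefm (1.5 ± 0.34), Pprc1 (1.43 ± 0.34) and Lrpprc (0.67 ± 0.25) also rose. The coactivator Ppargc1b fell by 1.05 ± 0.32 in naive cells (adjusted p = 0.0255), and Ppargc1a by 1.95 ± 0.65 in HD cells (adjusted p = 0.0315). Each of these decreases was lost in 4 of 13 fits without 1 library (up to 0.0954 and 0.194). So was the naive rise of Tfb2m (up to 0.0897), while that of Gabpb1 was lost in 8 (up to 0.145), the HD rise of Lrpprc in 7 (up to 0.152) and that of Pprc1 without HD unstimulated replicate 2 (0.102).

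Promoters were read to show what the genes share in sequence. RefSeq sequences (GRCm38.p6), each 250 bases before to 50 after a start, were matched by symbol for 65 of the 78 genes, as 70 promoters. Searched on both strands, GCATGCGC, the core of the NRF1 motif, was in 9 of 70 (12.9%, against 2.71% of all 32851 promoters), CCGGAAG of ETS factors in 17 (24.3% against 8.86%) and ATGGCGG of YY1 in 11 (15.7% against 4.05%). The E-box CACGTG was in 7 (10% against 7.15%) and ACGTG, the core of the hypoxia response element, which overlaps the E-box, in 17 (24.3% against 19.6%). Base composition was not matched, and a match is not a binding site. Printed below are promoters of Cox7a1 and Ndufv3, which had wide ranges between groups, and of Sdha. The 3 HD stimulated libraries of Sdha lay below all its others. Also printed are those of Atp5g1, called higher in HD than in naive cells with stimulation only, and Atp5k, called higher with and without it. Cox6b2, whose range was wider than that of Ndufv3, has a promoter with none of the 5 motifs, which is not printed. The promoters of Atp5c1, Cox7b, Ndufa12, Ndufb11 and Ndufc1, genes called in at least 2 comparisons, also hold none and are not printed. The 5 printed promoters are thus not a sample of the genes that changed. Capitals mark matches to these motifs, and each printed promoter reads 5′ to 3′ on the gene's strand.
Cox7a1, chr7:30183921-30184220, plus strand: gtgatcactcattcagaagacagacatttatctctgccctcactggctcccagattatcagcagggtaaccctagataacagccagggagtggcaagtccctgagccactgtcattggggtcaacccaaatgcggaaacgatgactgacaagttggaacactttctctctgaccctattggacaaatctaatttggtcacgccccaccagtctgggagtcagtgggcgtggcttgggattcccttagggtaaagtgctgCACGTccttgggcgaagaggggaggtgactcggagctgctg
Ndufv3, chr17:31519865-31520164, plus strand: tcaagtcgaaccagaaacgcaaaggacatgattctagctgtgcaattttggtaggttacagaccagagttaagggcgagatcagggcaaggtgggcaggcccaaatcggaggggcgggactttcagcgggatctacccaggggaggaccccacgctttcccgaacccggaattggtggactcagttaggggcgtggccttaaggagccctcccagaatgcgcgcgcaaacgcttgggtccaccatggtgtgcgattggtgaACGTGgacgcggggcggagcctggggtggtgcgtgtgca
Sdha, chr13:74350191-74350490, minus strand: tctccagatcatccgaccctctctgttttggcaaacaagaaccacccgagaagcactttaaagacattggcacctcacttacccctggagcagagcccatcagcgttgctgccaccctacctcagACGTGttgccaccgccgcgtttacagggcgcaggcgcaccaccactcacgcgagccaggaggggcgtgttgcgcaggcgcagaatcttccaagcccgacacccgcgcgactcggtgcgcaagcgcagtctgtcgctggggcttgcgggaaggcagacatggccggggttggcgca
Atp5g1, chr11:96075582-96075881, minus strand: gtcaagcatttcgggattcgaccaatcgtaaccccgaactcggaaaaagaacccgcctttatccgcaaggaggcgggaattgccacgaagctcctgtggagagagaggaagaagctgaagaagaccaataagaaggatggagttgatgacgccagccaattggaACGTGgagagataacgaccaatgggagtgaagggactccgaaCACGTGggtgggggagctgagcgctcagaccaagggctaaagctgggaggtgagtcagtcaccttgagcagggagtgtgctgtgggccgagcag
Atp5k, chr5:108434350-108434649, minus strand: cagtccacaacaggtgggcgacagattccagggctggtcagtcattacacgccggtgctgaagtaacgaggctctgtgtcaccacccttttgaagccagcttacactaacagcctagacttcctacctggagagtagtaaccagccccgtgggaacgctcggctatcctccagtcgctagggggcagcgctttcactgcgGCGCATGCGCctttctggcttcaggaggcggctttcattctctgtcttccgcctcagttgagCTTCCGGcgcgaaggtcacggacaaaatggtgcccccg
Cox7a1, Ndufv3 and Sdha held the ACGTG core only, Atp5g1 held this core and the E-box, and Atp5k held the NRF1 core, on both strands of one palindrome, and the ETS motif. Of the 5 motifs, none is therefore shared by all 5 of these promoters.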

How the data were processed

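Poly(A) RNA of 13 samples was sequenced in strand-specific libraries pooled after first-strand synthesis, per the labels' protocols. The build was mm10 per the submitters' processing notes; aligner, counter and annotation are not given in the sources used here. Though the deposited table is called counts, its values fit log2 of a quantile-normalized count plus 1, as far as the values themselves tell. Because the unit was log2, limma replaced a count model. Back-transformed values, divided by their sum, give CPM. Ranks survive quantile normalization, so read counts were recovered from them, up to rank 7000 by level.

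One model of 5 groups was fitted with limma 3.58.1 in R 4.3.3 (variance trend, residual df 8, prior df 6.3). Testing was limited to the 11543 of 11989 genes that reached 10 on the back-transformed scale in 2 or more libraries. The 7 contrasts were tested two-sided, with Benjamini-Hochberg adjustment over all genes tested and calls under 0.05. The test was checked on simulated data. Coordinates are from GENCODE (mm10). For naive anti-NK1.1 replicates 1 and 4 the stimulation label gives only 6 hours, and the title gave the group. No set test was run. The members, lists and motifs were chosen with earlier results of these data known. Named are, per complex and comparison, at most 3 called increases and 3 called decreases, core subunits and isoform pairs, the 3 largest changes per other list and called regulators; some of these are not printed, and Ndufb11, Coa7, Uqcc3 and Gpd2 were named, after their values were seen, to complete a count. Alternatives were no filter, a stricter filter (at least 50), an offset of 8, median-ratio scaling, robust moderation, no trend, compared groups only, library pool as a factor, replicate block and each library left out. Python 3.11.15, pandas 2.3.3 and matplotlib 3.10.9 were used.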

Additional observations from a re-analysis of the deposited data

Results flagged for a closer look

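A test of the difference between the HD and the naive stimulation response (limma, log2, HD minus naive) called 15.2% of all genes, 0 of the 78 subunit genes (2 at an unadjusted p under 0.05), 5 of 49 assembly factors, 4 of 8 genes of other electron inputs and 1 of 21 regulators. The electron carrier Cycs differed by 1.49 (adjusted p = 0.0119), with a rise in HD cells and a mean of 12.4 and 12.5 CPM in the 2 naive groups. Among assembly factors, Ndufaf4 of complex I differed by 2.08 (adjusted p = 8.06e-04), Sdhaf1 of complex II by 1.83 (adjusted p = 0.005), Sco2 of complex IV by 1.79 (adjusted p = 0.00815; 0.0536 without HD unstimulated replicate 1) and Coa7 by 1.68 (adjusted p = 0.00466), while Uqcc3 differed by -1.23 (adjusted p = 0.00532). Among other electron inputs, Sqor differed by 2.96 (adjusted p = 0.0107), Prodh by 2.04 (adjusted p = 0.0194), Etfb by 1.16 (adjusted p = 0.0447) and Gpd2 by 1.04 (adjusted p = 0.0403). Without HD unstimulated replicate 1 none of these 4 calls held (adjusted p = 0.059, 0.0823, 0.194 and 0.0961), and those of Etfb and Gpd2 were lost in 9 and 8 of 13 fits without 1 library. Etfb fell in both responses, at -2.02 in naive and -0.86 in HD cells, so its difference is that of a smaller fall. Sqor rose in HD cells from a lower level. Without stimulation its difference between HD and naive cells was -3.67 (adjusted p = 9.48e-05). The regulator Myc differed by 2.51 (adjusted p = 2.09e-04).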

How the results depend on the processing

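The counts of called subunit genes depended on single libraries. When each library was left out in turn they ran from 8 to 17 for the naive response (17 with all libraries), 7 to 13 for the HD response (12), 4 to 8 for HD culture unstimulated (8), 11 to 19 for HD culture stimulated (15), 1 to 5 for LD culture (5), 1 to 5 for HD against LD (4) and 0 to 1 for the difference of responses (0). With library pool as a factor they were 4 for HD culture unstimulated, 4 for HD culture stimulated, 3 for LD culture and 1 for HD against LD. With the compared groups only, LD culture gave 2 and HD against LD 2; without the variance trend LD culture gave 3; with robust moderation HD against LD gave 2. Sdhd turned to -0.028 (log2, adjusted p = 0.988) in HD culture unstimulated with pool as a factor, where the pool effect rests on the LD pair, which differs in Sdhd. The cause of the other changes was not tested. Calls over all genes tested also fell with pool as a factor, from 3909 to 1006 in HD culture unstimulated. In HD culture stimulated they fell from 5023 to 1107. Of 52 named gene and comparison pairs, 13 were called under all alternatives and 22 in all fits without 1 library.

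Replicate numbers recur between groups, and the labels do not state whether they pair the samples. Deviations of same-numbered libraries correlated at -0.143 to 0.162, and those of different numbers at -0.162 to 0.172. These are deviations from means of 2 or 3 libraries, and in a group of 2 they mirror each other. The correlations therefore cannot decide whether the numbers pair the samples. With the replicate block the counts were 6 for the naive response (3 higher and 3 lower), 9 for the HD response, 2 for HD culture unstimulated, 4 for HD culture stimulated, 1 for LD culture, 1 for HD against LD and 0 for the difference of responses. Groups of 2 or 3 libraries and, for Cox7a1 in naive cells, a few reads limit the precision.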
